A study of Mus musculus with 12 samples.

Results

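The 41 genes described here are a set of S phase and mitosis genes, of which 15 act in DNA replication and 26 in mitosis. A member was found as an array probe, other than a control spot, that the scanner files name by the gene's symbol, with Cdk1 also accepted under its older name Cdc2a. Of the 22 members with several probes, each was represented by the probe with the highest mean log2 signal over the 12 arrays. All 41 had such a probe among the 22750 detected probes, a detected probe being one that at least 1 group showed well above background on each of its 3 arrays. Every member was well above background on all 12 arrays, and none was saturated on any.

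The cells were C57MG, an established line of mouse mammary epithelial cells, kept in medium without supplements and exposed for 24 h to recombinant proteins. The 4 groups received BSA as the carrier control, 100 ng/ml Rspo2, 100 ng/ml Wnt3a, or Rspo2 and Wnt3a together at 100 ng/ml each, called the combination here. Each group had 3 monolayers, and RNA of each monolayer was hybridized to 1 single-color array. Nothing in the labels gives a genotype or an agent beyond these, and all groups are of 1 cell line.

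A dividing cell first licenses its origins by loading the MCM helicase, then copies its DNA in S phase with the sliding clamp and a supply of deoxynucleotides, and later segregates the copies under the control of Cdk1, Aurora and Polo-like kinases and the spindle checkpoint. Transcripts of the first kind are known to peak around S phase under E2F factors, and those of the second kind in late S phase, G2 and mitosis under the DREAM complex, B-Myb and FoxM1, which act through CHR and CCAAT elements. Wnt3a activates β-catenin signaling, and R-spondins such as Rspo2 enhance it by keeping Wnt receptors at the cell surface.

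Promoters of 4 members are shown because they span the range of the results. Mcm6, a helicase subunit, passed the test in no comparison. On the scaling used, Cdk1 and Mad2l1 passed it as higher with every treatment, and Mki67 as lower with Rspo2 and with the combination. Each line gives the 200 bases before the start of transcription, 5′ to 3′ on the gene's strand, from RefSeq on GRCm38.p6, at chr1:128359706-128359905, minus strand, chr10:69352913-69353112, minus strand, chr6:66535021-66535220, plus strand, and chr7:135716380-135716579, minus strand. Capitals mark the letters of 3 motifs on either strand: the CCAAT box as its name spells it, E2F as TTTGGCGC, TTTCGCGC, TTTCCCGC or TTTGCCGC, and CHR as TTTGAA or alternatively TTCGAA, with overlapping matches counted apart.
Mcm6: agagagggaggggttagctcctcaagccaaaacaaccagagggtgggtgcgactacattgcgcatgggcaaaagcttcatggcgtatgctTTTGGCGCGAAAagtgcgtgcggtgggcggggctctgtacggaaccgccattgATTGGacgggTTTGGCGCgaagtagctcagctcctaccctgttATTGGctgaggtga
Cdk1: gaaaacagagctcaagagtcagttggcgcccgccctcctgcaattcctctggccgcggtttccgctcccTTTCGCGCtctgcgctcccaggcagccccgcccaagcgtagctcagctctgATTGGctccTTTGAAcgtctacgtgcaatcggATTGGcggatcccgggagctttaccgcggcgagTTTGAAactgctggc
Mad2l1: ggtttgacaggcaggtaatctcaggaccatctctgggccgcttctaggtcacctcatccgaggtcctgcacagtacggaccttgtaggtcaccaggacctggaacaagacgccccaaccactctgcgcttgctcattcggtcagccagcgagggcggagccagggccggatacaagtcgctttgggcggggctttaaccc
Mki67: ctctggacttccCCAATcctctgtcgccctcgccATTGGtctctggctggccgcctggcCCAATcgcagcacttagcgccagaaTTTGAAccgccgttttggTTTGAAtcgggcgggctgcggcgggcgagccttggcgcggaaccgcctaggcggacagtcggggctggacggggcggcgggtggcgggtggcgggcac
Mcm6 held 3 E2F and 2 CCAAT matches, Cdk1 held matches of all 3 motifs, Mki67 held 2 CHR and 3 CCAAT matches, and Mad2l1 held none of these letters in the whole window.

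Over windows from 250 bases before to 50 after the start, 34 of the 41 members had an entry. The members without one were Mcm4, Ccne2, Ccna2, Foxm1, Aurkb, Kif20a and Tpx2. The E2F letters were found in 6 of 13 replication genes (46.2%), Mcm3, Mcm5, Mcm6, Mcm7, Cdc6 and Cdt1, in 1 of 21 mitosis genes (4.76%), Cdk1, and in 2.26% of all 32851 windows. The CHR letters were found in 2 of 13 replication genes (15.4%), 16 of 21 mitosis genes (76.2%) and 19.2% of all windows. The CCAAT letters were found in 8 of 13 replication genes (61.5%), 18 of 21 mitosis genes (85.7%) and 37.4% of all windows, and each of the 16 mitosis genes with CHR letters also had CCAAT. Of the mitosis genes with a window, Ccnb1, Birc5, Mad2l1, Cenpe and Nusap1 had no CHR letters. These are matches of letters and not tested sites, and genes with matches are among those that rose, those that fell and those that passed no test.

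The arrays had 75th percentile intensities between 774 and 1146, and between 51.3% and 64.1% of all probes were well above background. A value below is the log2 signal of a probe minus the log2 75th percentile of its array, a change is a difference of group means on that log2 scale, and its error is the standard error of the limma fit. A probe was called where the adjusted p, over all detected probes, was under 0.05. The groups lay unevenly on 3 slides: the BSA arrays shared slide 1 with Rspo2 array 1, slide 2 held Rspo2 arrays 2 and 3 with Wnt3a arrays 1 and 2, and slide 3 held Wnt3a array 3 with the 3 arrays of the combination. Of 8 epithelial markers, Krt14 and Krt8 were well above background on 12 arrays, Krt5 on 10, Krt7 on 9, Krt18 on 3, Krt19 and Epcam on 2 each and Cdh1 on 0. Among 8 mesenchymal markers 6 were on all 12 arrays, Dcn on 11 and Thy1 on 0. Of 5 leukocyte markers, Cd68 and Lyz2 were above background on 12 arrays, Cd3e on 11, and Ptprc and Adgre1 on 1 each. Of 3 endothelial markers, Cdh5 was on 12, Pecam1 on 1 and Kdr on 0.

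Across all 41 genes the changes were small and, on the scaling used, did not go 1 way. Rspo2 alone raised 4 members, Rrm2, Ccnb1, Cdk1 and Mad2l1, and lowered 3, Cenpe, Cenpf and Mki67. Wnt3a alone raised 13 and lowered Cenpf. The combination raised 14 and lowered Cenpf and Mki67. No member reached 2-fold in any of these 3 comparisons: the largest change was that of Mad2l1 with the combination, 0.75 ± 0.08 on the log2 scale or 1.68-fold. The calls with Rspo2 varied over 14 alternative settings and 12 fits that each left out 1 array. Of these, Rrm2 was called in 3 and 4, Ccnb1 in 3 and 5, Cdk1 in 2 and 4, and Mad2l1 in 5 and 8. Cenpe was called in 3 and 2, Cenpf in 6 and 9, and Mki67 in 5 and 5.

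With Rspo2, 7 of 41 members were called, beside 16.8% of all detected probes, of which 10.9% were higher and 5.93% lower. With Wnt3a 14 of 41 were called, beside 31.5% of all probes (18.3% higher and 13.2% lower). With the combination 16 of 41 were called, beside 39.2% of all probes (21.9% higher and 17.3% lower). As shares of the members these calls, 17.1%, 34.1% and 39.0%, were near those of all probes, so the number called says nothing particular about the set. At an unadjusted p under 0.05 there were 15, 16 and 19 members, beside 35%, 43% and 47.9% of all probes. At a change of at least 2-fold as well, no member was called, beside 0.721%, 2.52% and 5.08% of all probes. The arrays lay entirely above BSA for 9, 15 and 21 members and entirely below for 9, 3 and 5, beside 26.3%, 25.9% and 30.8% of all probes above and 17.2%, 19.6% and 23.1% below. The 3 comparisons share the BSA arrays and are therefore not independent. The count with Rspo2 hung on single arrays: it was 0 without BSA array 1, BSA array 2 or Rspo2 array 3, 1 without BSA array 3, 2 without Rspo2 array 2 or combination array 2, and 4 without Rspo2 array 1 or Wnt3a array 1. The share of all probes called also fell, from 16.8% to 2.61%, 4.99% and 3.54% without BSA array 1, 2 or 3. It fell to 2.05% without Rspo2 array 3, 6.2% without Rspo2 array 2 and 9.92% without combination array 2. Without Rspo2 array 1 or Wnt3a array 1 it was 15.8% and 14.2%. In bulk RNA, a larger share of cells in S phase or mitosis and more of a transcript per such cell cannot be told apart.

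By list, the combination raised 6 of 15 replication genes and lowered 0, and raised 8 of 26 mitosis genes and lowered 2. Wnt3a raised 4 replication genes and lowered 0, and raised 9 mitosis genes and lowered 1. Rspo2 raised 1 replication gene and 3 mitosis genes, and lowered 3 mitosis genes. The median change of the replication genes was -0.04 with Rspo2, 0.08 with Wnt3a and 0.11 with the combination, and that of the mitosis genes -0.04, 0.15 and 0.14, beside medians over all detected probes of 0.013, -0.00028 and 0.043. In all 18 members were called in at least 1 comparison with BSA and 23 in none.

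**Figure D1:**
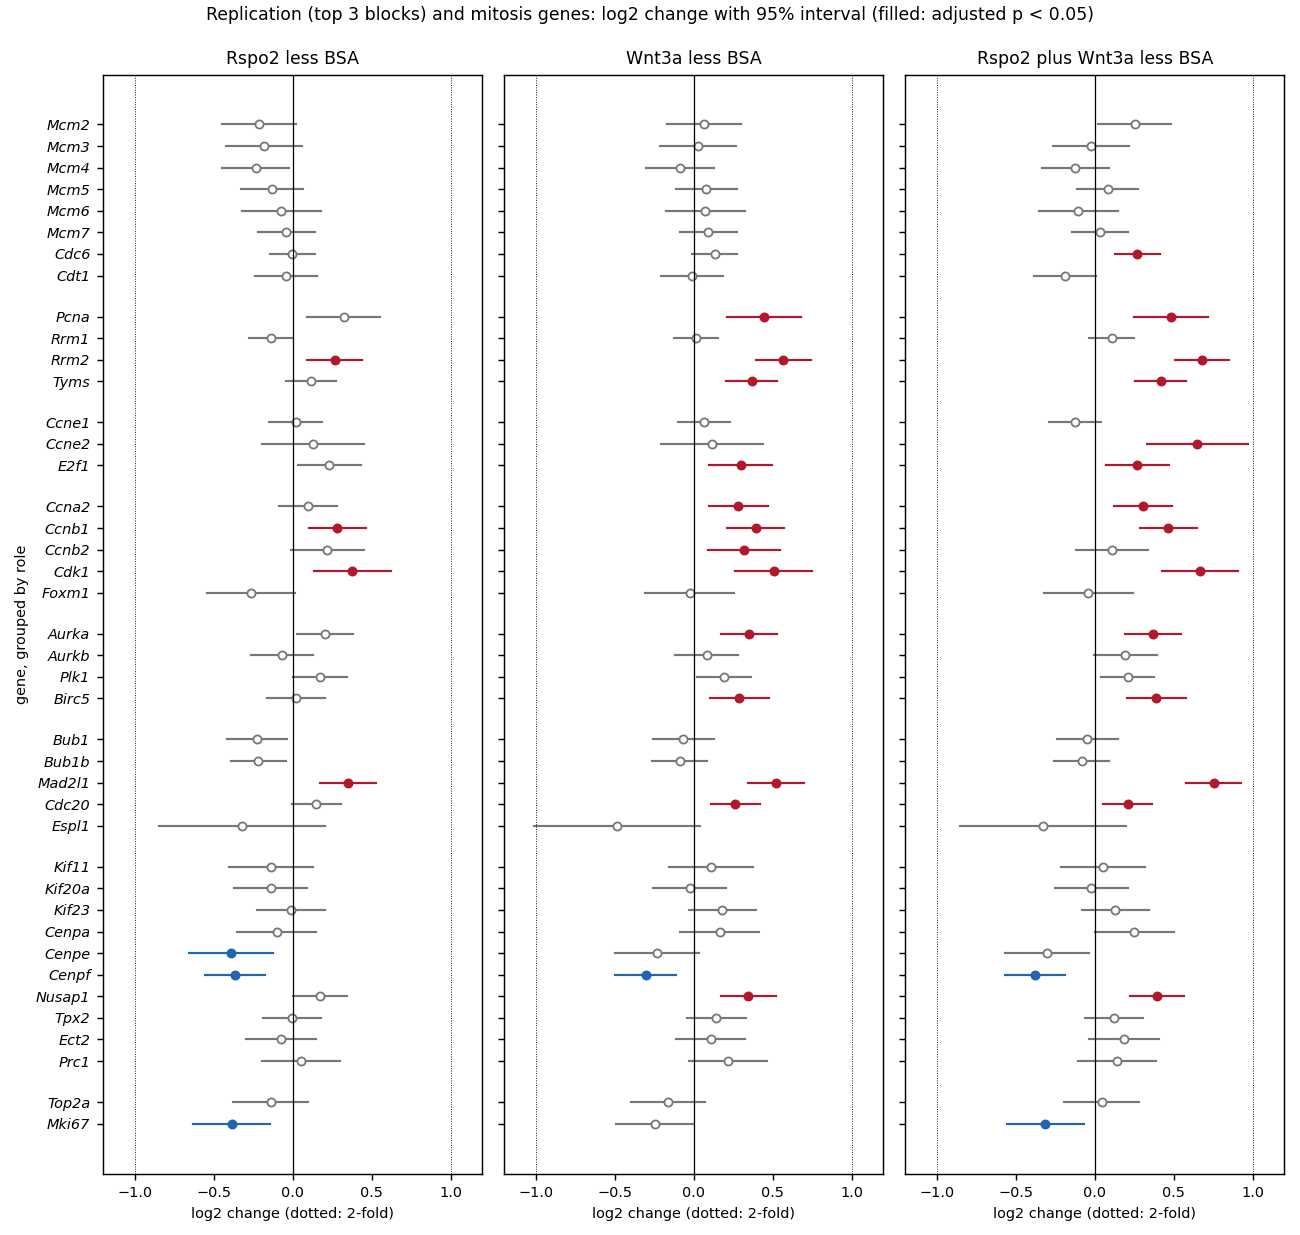
Log2 change of each of the 41 genes against BSA (x axis, log2 scale) with Rspo2, Wnt3a and the combination, grouped by role on the y axis; points are limma estimates from 3 arrays a group, bars their 95% intervals, and filled red or blue points passed an adjusted p of 0.05. The MCM genes at the top are unfilled in all 3 panels, while Rrm2, Cdk1 and Mad2l1 lie to the right and Cenpf and Mki67 to the left.

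The direction of these counts depends on how the arrays were scaled. Under quantile normalization the split of higher and lower calls was 0 and 7 with Rspo2, 2 and 5 with Wnt3a, and 7 and 6 with the combination. Of all probes 12.1%, 24% and 36.5% were called under it. The medians over the 41 genes were -0.18, -0.09 and -0.09. With the 75th percentile taken over the probes above background on all arrays the split was 1 and 6, 8 and 2, and 10 and 5, and the median of all detected probes itself shifted to -0.09, -0.12 and -0.07. Under that scaling 15.3%, 33% and 38.5% of all probes were called. Called under all 3 scalings were Cenpe, Cenpf and Mki67 with Rspo2, all lower. With Wnt3a these were Rrm2 and Mad2l1, higher, and Cenpf, lower. With the combination they were 8 genes, Rrm2, Ccne2, Ccnb1, Cdk1, Mad2l1 and Nusap1, higher, and Cenpf and Mki67, lower.

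**Figure D2:**
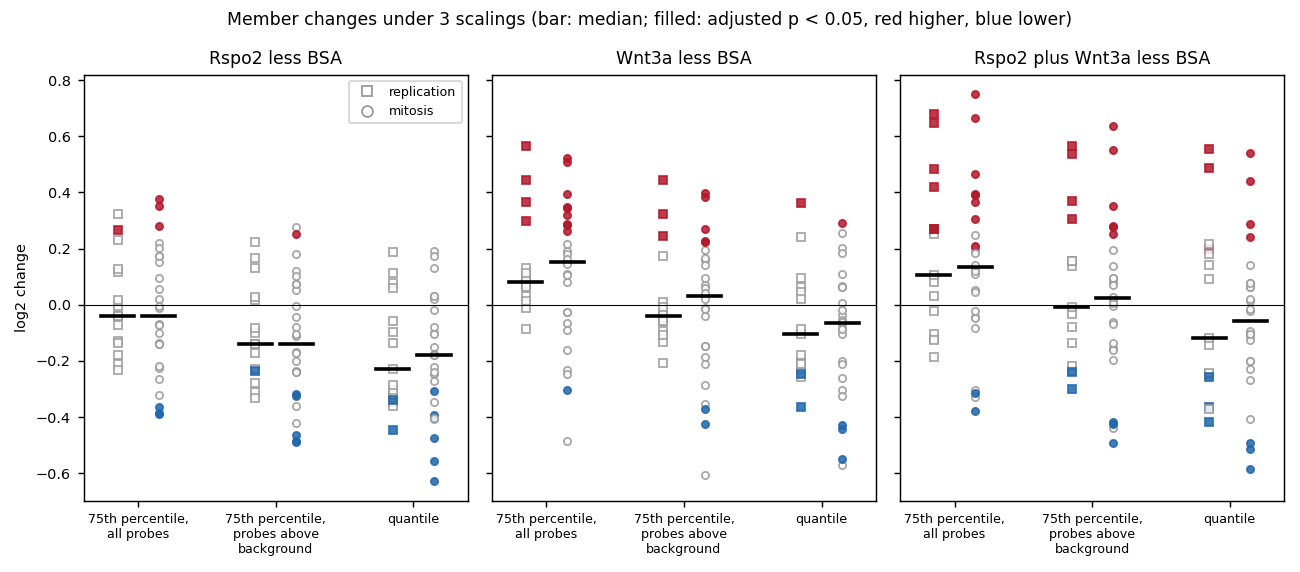
Log2 changes against BSA (y axis) of the 15 replication genes (squares) and 26 mitosis genes (circles) under 3 scalings of the same arrays (x axis); black bars are medians and filled symbols passed an adjusted p of 0.05. The medians with Wnt3a and with the combination lie above 0 under the 75th percentile of all probes and below 0 under quantile normalization.

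Among the 8 licensing and helicase genes, Cdc6, which loads the MCM complex onto origins, was the only one called, and only with the combination. Cdc6 had values of 1.08, 1.08 and 1.16 with BSA, 1.08, 1.09 and 1.14 with Rspo2, 1.27, 1.28 and 1.18 with Wnt3a, and 1.36, 1.37 and 1.40 with the combination. The combination arrays lay above all others, and the Wnt3a arrays above the BSA arrays. Its change was 0.27 ± 0.06 with the combination (adjusted p = 0.0074), against 0.13 with Wnt3a (adjusted p = 0.14) and -0.0027 with Rspo2. A second detected probe of Cdc6 was lower with Rspo2 at -0.40 and with Wnt3a at -0.37 (adjusted p = 0.042 and 0.036), and its -0.18 with the combination had an adjusted p of 0.27, so that its sign differed from that of the probe used with Wnt3a and with the combination. That second probe had a median intensity of 199, against 2163 for the probe used.

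Mcm2, a subunit of the replicative helicase, had values of 2.24, 2.42 and 2.38 with BSA, 2.27, 2.19 and 1.94 with Rspo2, 2.44, 2.48 and 2.31 with Wnt3a, and 2.45, 2.64 and 2.70 with the combination. The combination arrays lay above the BSA arrays, but the change of 0.25 ± 0.11 had an adjusted p of 0.082. The other helicase genes, Mcm3, Mcm4, Mcm5, Mcm6 and Mcm7, and Cdt1, a licensing factor, passed no test, with changes between -0.19 and 0.08 with the combination. All 8 licensing genes had negative estimates with Rspo2, from -0.23 for Mcm4 to -0.0027 for Cdc6, and none was called. The 95% intervals of the 8 genes lay between -0.45 and 0.18 with Rspo2, between -0.30 and 0.32 with Wnt3a and between -0.39 and 0.49 with the combination.

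Of the 4 clamp and nucleotide supply genes, 3 rose with Wnt3a and with the combination, and the median change of the 4 was 0.41 and 0.45. Rrm2, the S phase subunit of ribonucleotide reductase, had values of 2.67, 2.59 and 2.70 with BSA, 2.85, 2.91 and 2.99 with Rspo2, 3.18, 3.35 and 3.13 with Wnt3a, and 3.35, 3.36 and 3.29 with the combination. The BSA, Rspo2 and Wnt3a arrays formed 3 separate ranges in rising order, and the combination overlapped Wnt3a at the top. The changes were 0.27 ± 0.08 with Rspo2, 0.57 with Wnt3a and 0.68 with the combination (adjusted p = 0.043, 0.00097 and 0.00011).

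Tyms, thymidylate synthase, had values of 4.62, 4.51 and 4.44 with BSA, 4.56, 4.66 and 4.69 with Rspo2, 4.84, 4.91 and 4.92 with Wnt3a, and 4.99, 4.89 and 4.94 with the combination. Rspo2 overlapped BSA, while both groups with Wnt3a lay above BSA and Rspo2 on every array. Its changes were 0.37 with Wnt3a and 0.42 with the combination (adjusted p = 0.0045 and 0.0014), and a second detected probe gave 0.41 and 0.43. Pcna, the sliding clamp, changed by 0.44 with Wnt3a and 0.48 with the combination (adjusted p = 0.0099 and 0.0047), and its 0.32 with Rspo2 had an adjusted p of 0.059. Rrm1, the large subunit that pairs with Rrm2, was not called in any comparison, with changes of -0.14, 0.01 and 0.11.

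Ccne2 and Ccne1 encode the E-type cyclins that drive entry into S phase with Cdk2, and E2f1 a factor that activates S phase genes. Ccne2 had values of 1.28, 1.37 and 1.39 with BSA, 1.50, 1.50 and 1.42 with Rspo2, 1.04, 1.68 and 1.66 with Wnt3a, and 1.95, 2.09 and 1.94 with the combination. The combination lay above every other array, and Wnt3a array 1 lay below all others. Its change with the combination was 0.65 ± 0.15 or 1.57-fold (adjusted p = 0.0054), against 0.13 with Rspo2 and 0.11 with Wnt3a, which passed no test. A second detected probe gave 0.63 with the combination, and 0.26 with Wnt3a (adjusted p = 0.021), where the probe used was not called.

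E2f1 had values of 0.91, 0.96 and 0.80 with BSA, 1.02, 1.11 and 1.23 with Rspo2, 1.10, 1.33 and 1.13 with Wnt3a, and 1.25, 1.15 and 1.08 with the combination. All 9 treated arrays lay above the 3 BSA arrays, and the treated groups overlapped each other. The changes of 0.30 with Wnt3a and 0.27 with the combination passed the test (adjusted p = 0.029 and 0.037), and that of 0.23 with Rspo2 had an adjusted p of 0.098. Ccne1 had changes of 0.02, 0.06 and -0.13, none called.

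**Figure D3:**
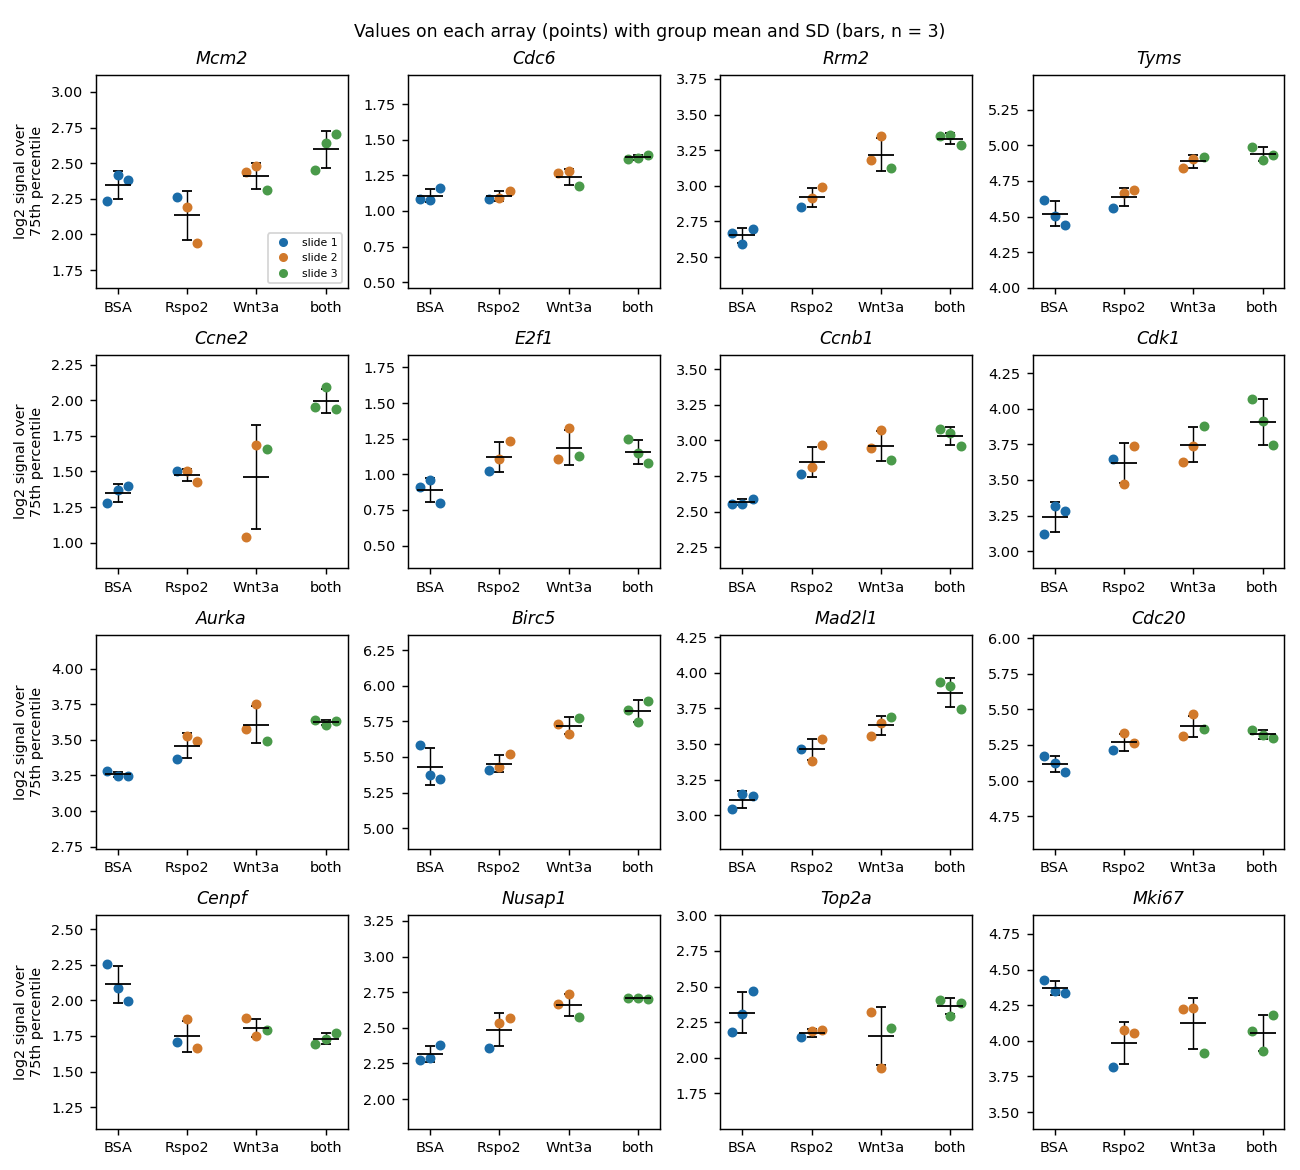
Log2 signal over the 75th percentile (y axis, the same span of 1.5 units in each panel) on every array for the 2 genes of each role with the smallest F-test p; points are arrays colored by slide, and bars are the group mean and SD of 3 arrays, with the combination marked as both. BSA lies lowest in the panels of Rrm2, Ccnb1, Cdk1 and Mad2l1 and highest in those of Cenpf and Mki67.

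Of the mitotic cyclin genes, Ccnb1 and its partner kinase gene Cdk1 were called higher in all 3 comparisons on the scaling used. Neither call with Rspo2 held under all 3 scalings. Cdk1, whose product drives entry into mitosis, had values of 3.12, 3.32 and 3.28 with BSA, 3.65, 3.47 and 3.74 with Rspo2, 3.63, 3.74 and 3.88 with Wnt3a, and 4.07, 3.91 and 3.74 with the combination. Each treated array lay above the 3 BSA arrays, and the Wnt3a arrays overlapped those of Rspo2 and of the combination. The lowest combination array, at 3.744, lay just above the highest Rspo2 array, at 3.738. The changes were 0.38, 0.51 and 0.67 with errors of 0.11 (adjusted p = 0.042, 0.0066 and 0.0010). A second detected probe of Cdk1 gave only -0.06, 0.04 and 0.11, none of which passed the test. Its median intensity was 46.3, against 11266 for the probe used.

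Ccnb1, cyclin B1, had values of 2.55, 2.55 and 2.59 with BSA, 2.76, 2.81 and 2.97 with Rspo2, 2.94, 3.07 and 2.86 with Wnt3a, and 3.08, 3.05 and 2.96 with the combination. BSA was again the lowest group with no overlap. Its changes were 0.28, 0.39 and 0.47 (adjusted p = 0.041, 0.0054 and 0.0014), and 2 further probes of the gene rose by 0.43 and 0.33 with Wnt3a and by 0.56 and 0.53 with the combination. Ccna2, the cyclin of S phase and G2, changed by 0.10, 0.28 and 0.31, of which the last 2 passed the test (adjusted p = 0.026 and 0.014). Ccnb2, cyclin B2, passed only with Wnt3a, at 0.32 (adjusted p = 0.038), and had 0.22 with Rspo2 and 0.11 with the combination. Foxm1, a factor that activates G2 and mitosis genes, had -0.26, -0.03 and -0.04 and passed no test.

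Aurka and Birc5 were the mitotic kinase and passenger genes that passed the test. Aurka, the Aurora kinase of the spindle poles, had values of 3.28, 3.25 and 3.25 with BSA, 3.36, 3.52 and 3.49 with Rspo2, 3.58, 3.75 and 3.49 with Wnt3a, and 3.64, 3.60 and 3.63 with the combination. All treated arrays lay above the BSA arrays. It changed by 0.35 with Wnt3a and 0.37 with the combination (adjusted p = 0.0087 and 0.0048), and its 0.20 with Rspo2 had an adjusted p of 0.10. Birc5, survivin, a subunit of the chromosomal passenger complex, had values of 5.58, 5.37 and 5.34 with BSA, 5.41, 5.43 and 5.52 with Rspo2, 5.73, 5.66 and 5.77 with Wnt3a, and 5.83, 5.74 and 5.90 with the combination.

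Rspo2 overlapped BSA for Birc5, and the groups with Wnt3a lay above both. The changes of Birc5 were 0.29 with Wnt3a and 0.39 with the combination (adjusted p = 0.024 and 0.0044). Under quantile normalization the change with Wnt3a turned to -0.05 and passed no test. Aurkb, the catalytic partner of Birc5 in that complex, had -0.07, 0.08 and 0.19, and Plk1, the Polo-like kinase, had 0.17, 0.19 and 0.21, none called.

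Mad2l1, a spindle checkpoint protein that restrains Cdc20, had the largest change of the set. Its values were 3.04, 3.15 and 3.14 with BSA, 3.47, 3.38 and 3.54 with Rspo2, 3.56, 3.65 and 3.69 with Wnt3a, and 3.94, 3.91 and 3.74 with the combination. The 4 groups did not overlap, in the order BSA, Rspo2, Wnt3a and the combination. The changes were 0.35 ± 0.08 with Rspo2, 0.52 with Wnt3a and 0.75 with the combination (adjusted p = 0.022, 0.0015 and 6.2e-05). The step from Wnt3a to the combination, 0.23, had an adjusted p of 0.15, so these neighbors in the order did not differ beyond the threshold. A second detected probe gave 0.32, 0.51 and 0.69.

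Cdc20, the activator of the anaphase-promoting complex, had values of 5.17, 5.12 and 5.06 with BSA, 5.21, 5.33 and 5.26 with Rspo2, 5.32, 5.46 and 5.36 with Wnt3a, and 5.36, 5.32 and 5.30 with the combination. The treated arrays lay above the BSA arrays by a small margin. Its changes of 0.26 with Wnt3a and 0.21 with the combination passed the test (adjusted p = 0.017 and 0.038), but under quantile normalization they turned to -0.06 and -0.10, without a call. The checkpoint kinase genes Bub1 and Bub1b had -0.22 each with Rspo2 and between -0.09 and -0.05 in the other comparisons with BSA, and passed no test. Espl1, separase, had -0.32, -0.49 and -0.33 with the widest errors of the set (0.24), and passed no test.

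Among the motor, spindle, centromere and cytokinesis genes, Nusap1 rose and Cenpf and Cenpe fell. Nusap1, a protein that bundles spindle microtubules, had values of 2.28, 2.29 and 2.38 with BSA, 2.36, 2.53 and 2.57 with Rspo2, 2.67, 2.74 and 2.58 with Wnt3a, and 2.71, 2.71 and 2.71 with the combination. The groups with Wnt3a lay above all BSA and Rspo2 arrays. The changes were 0.35 with Wnt3a and 0.39 with the combination (adjusted p = 0.0080 and 0.0028). A second probe of Nusap1, with a median intensity of 51.7 against 5410 for the probe used, gave -0.13 and 0.01, without a call.

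Cenpf, a large kinetochore protein, had values of 2.25, 2.08 and 2.0 with BSA, 1.71, 1.87 and 1.67 with Rspo2, 1.88, 1.75 and 1.79 with Wnt3a, and 1.69, 1.73 and 1.77 with the combination. All 9 treated arrays lay below the BSA arrays, and the treated groups overlapped. Its changes were -0.36, -0.30 and -0.38 (adjusted p = 0.024, 0.022 and 0.0059), although a second detected probe gave -0.31, -0.13 and 0.02 and passed no test. That second probe had a median intensity of 94.5, against 3256 for the probe used. Cenpe, a kinetochore motor, fell by 0.39 with Rspo2 (adjusted p = 0.049), and its -0.23 and -0.30 in the other comparisons had adjusted p of 0.17 and 0.067. Of its 2 further probes, the dimmer fell by 0.57 with Rspo2 and by 0.37 with Wnt3a, and the other gave 0.20 and 0.24 without a call. Their median intensities were 542 and 656, against 5884 for the probe used.

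The remaining genes of this role passed no test in any comparison for the probe used. They are the kinesins Kif11, Kif20a and Kif23, the centromeric histone gene Cenpa, the spindle assembly factor gene Tpx2, and Ect2 and Prc1, which act in cytokinesis. With the combination their changes ran from -0.02 for Kif20a to 0.25 for Cenpa. Under limma with Benjamini-Hochberg adjustment Cenpa came nearest to the threshold, with an adjusted p of 0.10. A second detected probe of Kif20a was lower with Rspo2, at -0.26 (adjusted p = 0.046), and gave -0.13 and -0.11 without a call in the other comparisons.

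Mki67, the Ki-67 proliferation antigen that coats mitotic chromosomes, fell. Its values were 4.43, 4.35 and 4.33 with BSA, 3.82, 4.08 and 4.06 with Rspo2, 4.22, 4.23 and 3.92 with Wnt3a, and 4.07, 3.93 and 4.18 with the combination. Every treated array lay below the 3 BSA arrays. The changes were -0.39 with Rspo2 and -0.31 with the combination (adjusted p = 0.040 and 0.044), and that with Wnt3a, -0.25, had an adjusted p of 0.11. A second probe, with a median intensity of 5584 against 15304 for the probe used, gave -0.13, -0.09 and -0.05, none called. Top2a, the topoisomerase that untangles sister chromatids, had values of 2.18, 2.30 and 2.47 with BSA, 2.15, 2.19 and 2.20 with Rspo2, 2.32, 1.93 and 2.21 with Wnt3a, and 2.40, 2.30 and 2.38 with the combination. Each treated group overlapped BSA, and its changes of -0.14, -0.16 and 0.04 passed no test.

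Adding Rspo2 to Wnt3a changed no member by limma with Benjamini-Hochberg adjustment, beside 4.27% of all probes. At an unadjusted p under 0.05 there were 3 members, beside 18.4% of all probes. Ccne2 had the largest difference, 0.53 (1.45-fold) with an adjusted p of 0.072. For the interaction, which is the effect of the combination beyond the sum of both single effects, 0 members were called, beside 8.9% of all probes, and 5 had an unadjusted p under 0.05, beside 29.3%. The medians of the 41 genes were 0.02 for the step from Wnt3a to the combination and 0.08 for the interaction. The 95% intervals of that step lay between -0.44 and 0.86 over the 41 genes, all within 2-fold in either direction.

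**Figure D4:**
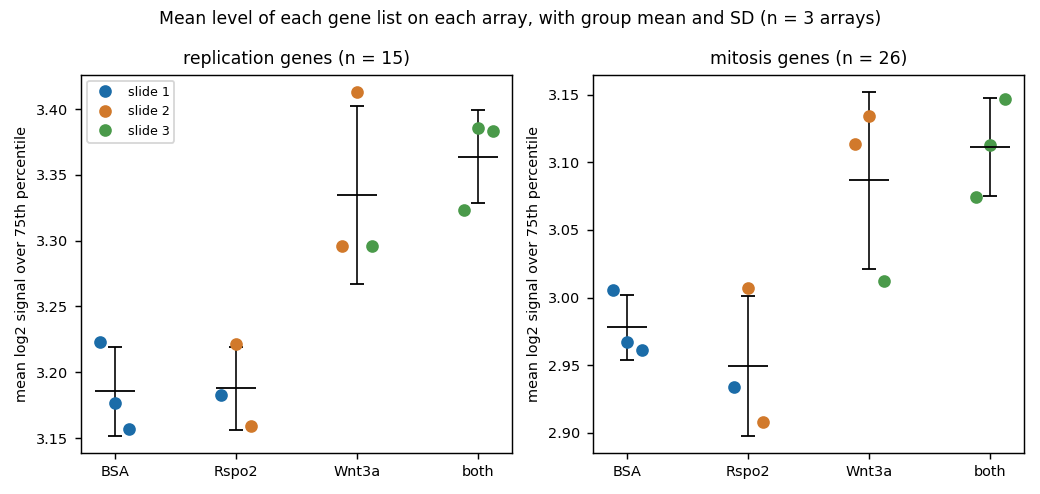
Mean log2 signal over the 75th percentile (y axis) of the 15 replication genes and of the 26 mitosis genes on each of the 12 arrays; points are arrays colored by slide, and bars are the group mean and SD of 3 arrays. The replication genes average 3.16 to 3.22 on the BSA and Rspo2 arrays and 3.30 to 3.41 on the arrays with Wnt3a, and the mitosis genes 2.91 to 3.01 and 3.01 to 3.15, on a scaling whose direction against BSA turned under quantile normalization.

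Averaged over the list, the replication genes had 3.19 ± 0.03 (SD, n = 3) with BSA, 3.19 ± 0.03 with Rspo2, 3.34 ± 0.07 with Wnt3a and 3.36 ± 0.04 with the combination. The mitosis genes averaged 2.98 ± 0.02, 2.95 ± 0.05, 3.09 ± 0.07 and 3.11 ± 0.04 in the same order. For the replication genes every array with Wnt3a lay above every array without it, and for the mitosis genes Wnt3a array 3 lay only just above the highest Rspo2 array. No array with Wnt3a shared a slide with a BSA array. Over the same arrays the summed signal of 8 epithelial markers lay between 10.2 and 10.7 times the 75th percentile with BSA, 9.69 and 12.3 with Rspo2, 15.3 and 16.9 with Wnt3a, and 22.5 and 25.9 with the combination. Nearly all of that sum was Krt14, with mean log2 values of 3.35, 3.41, 4.01 and 4.59, while Krt8 went the other way, at -3.51, -3.75, -4.20 and -4.66. For BSA, Rspo2, Wnt3a and the combination, in that order, the sum of 8 mesenchymal markers lay at 235 to 256, 227 to 240, 245 to 259 and 242 to 244. It was carried by Vim and Col1a1, at 6.95 and 6.10 with BSA and 7.12 and 6.03 with the combination, whereas Pdgfra went from 1.26 to -0.11, Col3a1 from 2.36 to 1.51, Pdgfrb from 5.07 to 4.47 and Dcn from -4.09 to -4.99. The sum of 5 leukocyte markers was 1.68 to 1.75, 2.18 to 2.30, 2.14 to 2.29 and 1.76 to 1.81 in the same order, and that of 3 endothelial markers 2.43 to 2.59, 1.83 to 1.88, 1.64 to 1.85 and 1.63 to 1.74. Their part in the changes of the members was not tested.

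Since slide and treatment overlap only in part, differences were also taken between groups on 1 slide. On slide 2, 39 of 41 members were higher on the 2 Wnt3a arrays than on the 2 Rspo2 arrays, with a median of 0.17, while 47.2% of all probes were higher and their median was -0.02. The count was 39 under quantile normalization and under the 75th percentile of probes above background as well, with medians of 0.16 and 0.17. No member passed the test there, beside 0.655% of all probes. The members share these arrays and are not independent of each other. By the probe used, every member lay above the 75th percentile of each array, whereas all detected probes include dimmer ones. On slide 1 the single Rspo2 array was above the mean of the 3 BSA arrays for 18 of 41 members (median -0.02), beside 53.8% of all probes, with 0.431% of all probes called. On slide 3 the combination was above the single Wnt3a array for 31 of 41 (median 0.08), beside 49.3% of all probes, with 1.38% called. No member was called on either slide. Under quantile normalization and under the 75th percentile of probes above background the counts were 10 and 13 on slide 1 (medians -0.14 and -0.10) and 36 and 33 on slide 3 (medians 0.14 and 0.10).

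When the model also held the slide as a term, limma called 0 members with Rspo2, Wnt3a or the combination, beside 0.431%, 0.796% and 2.51% of all probes. It also called 0 for adding Rspo2 to Wnt3a and 0 for the interaction, beside 1.38% and 0.743%. The members called without the term kept their direction: 7 of 7, 14 of 14 and 16 of 16. They were picked by calls on the same arrays, so this agreement is not independent and does not test the part of the slide. With Rspo2 it was set in advance, since each Rspo2 array lay to 1 side of all BSA arrays for those 7. The median change of the 41 genes under that fit was -0.02, 0.18 and 0.24, beside -0.04, 0.11 and 0.13 without the term. With the combination Rrm2 had 0.72 ± 0.18 with the term and 0.68 ± 0.08 without it, and Mad2l1 0.67 ± 0.20 and 0.75 ± 0.08. The estimate for Rspo2 in that fit rests on the single Rspo2 array on slide 1, and slide and treatment cannot be told apart for most of the arrays.

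**Figure D5:**
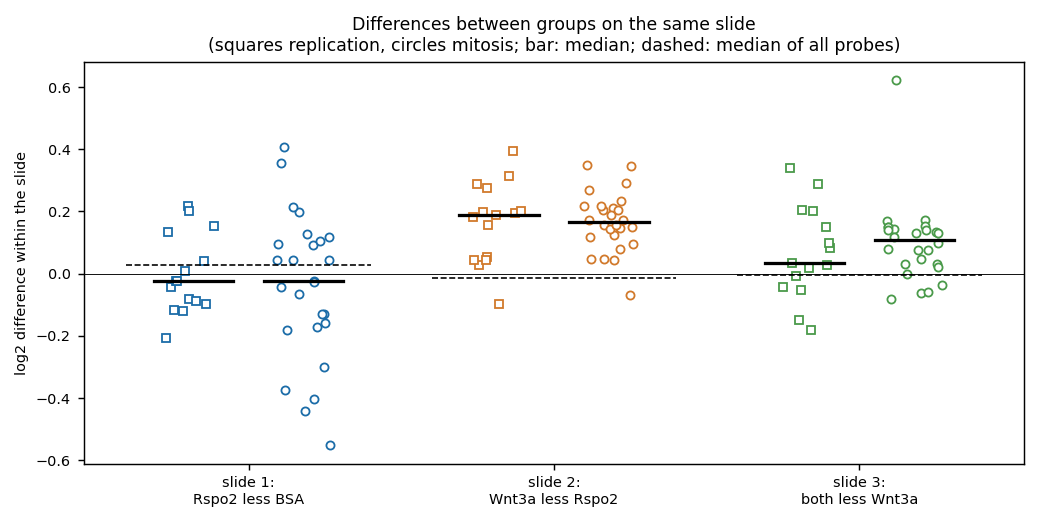
Log2 difference (y axis) between groups on the same slide (x axis) for the 15 replication genes (squares) and 26 mitosis genes (circles); solid bars are list medians and dashed lines the median of all detected probes. On slide 2, 39 of 41 members lie above 0, against 18 on slide 1 and 31 on slide 3.

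Gene span was set beside the changes. By RefSeq on GRCm38.p6, Cenpe spans 61.0 kb, Cenpf 47.5 kb and Mki67 26.7 kb, whereas Mad2l1 and Rrm2 span 5.89 kb each and Pcna 3.90 kb. Cdk1, at 17.8 kb, Tyms, at 35.1 kb, and Nusap1, at 31.9 kb, were called higher, and Tpx2, Kif11 and Bub1b, at 47.4, 45.5 and 43.4 kb, and the longer Ect2 were not called. Across the 41 genes, which share the same arrays and the same BSA controls, Spearman's rho of gene span with change was -0.48 with Rspo2, -0.41 with Wnt3a and -0.38 with the combination. Across 14909 detected probes matched to a gene it was -0.32, -0.30 and -0.24, so a relation of that sign is not particular to the members. Whether the members differ from all probes in it, and its part in their changes, was not tested. These spans include introns, and the lengths of the transcripts were not compared.

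Other genes of the same processes, none of them a member, were followed as 2 further lists. Of 23 other replication genes, Rspo2 raised 4 and lowered 4, Wnt3a raised 13 and lowered 0, and the combination raised 12 and lowered 1, Pole, the catalytic subunit of DNA polymerase epsilon, at -0.52. Of all probes, the shares higher and lower were 10.9% and 5.93% with Rspo2, 18.3% and 13.2% with Wnt3a, and 21.9% and 17.3% with the combination. Under quantile normalization the numbers of these 23 genes raised and lowered were 0 and 4, 2 and 1, and 5 and 3. Once the slide was fitted 0 were called in each comparison, beside 0.431%, 0.796% and 2.51% of all probes. The 3 of the 23 with the smallest F-test p were Rfc4, a clamp loader subunit, with 0.31, 0.54 and 0.50, Cdc45, a helicase activator, with 0.25, 0.33 and 0.54, and Prim1, a primase subunit, with 0.09, 0.30 and 0.35. All 3 rose with Wnt3a and with the combination, and Rfc4 also with Rspo2. Of 35 other mitosis genes, Rspo2 raised 4 and lowered 0, Wnt3a raised 13 and lowered 1, and the combination raised 19 and lowered 2, Incenp and Cit. Under quantile normalization these numbers were 1 and 1, 4 and 1, and 10 and 1, and once the slide was fitted 0 were called, beside the same shares of all probes as for the replication list. Ndc80, a kinetochore subunit, rose by 0.35, 0.32 and 0.54 in the 3 comparisons, and Cks1b, a Cdk subunit, by 0.48 and 0.43 with Wnt3a and with the combination.

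Hmmr, a spindle-associated hyaluronan receptor, had -0.21 with Rspo2 and -0.14 with Wnt3a, without a call, but 0.26 with the combination (adjusted p = 0.021). Of 10 genes that restrain the cell cycle, the combination raised 4 and lowered Ccng2, Wnt3a raised 5 and Rspo2 raised 2. Beside these and the next list stood 21.9% of all probes higher and 17.3% lower with the combination. The shares were 18.3% and 13.2% with Wnt3a, and 10.9% and 5.93% with Rspo2. Under quantile normalization 0 were called with Rspo2, 2 were raised and 1 lowered with Wnt3a, and 3 were raised and 2 lowered with the combination. Of all probes 12.1%, 24% and 36.5% were called there. Once the slide was fitted 0 were called, beside 0.431%, 0.796% and 2.51% of all probes. Cdkn1a, the inhibitor p21, rose by 0.76 with Wnt3a and 0.93 with the combination (adjusted p = 0.0019 and 0.00029), and Ccng1, cyclin G1, by 0.34, 0.53 and 0.55. Ccng2, cyclin G2, fell by 0.76 with the combination (adjusted p = 0.00047). Of 13 genes of G1 cyclins, their kinases, Myc and the E2f family, the combination raised 4, Ccnd1, Cdk2, Myc and E2f8, and lowered E2f2. Under quantile normalization the combination raised 3 and lowered 1 of these 13, beside 36.5% of all probes called. Once the slide was fitted it raised 1, beside 2.51% of all probes called. The change of Cdk2 was -0.020 with slide as a term.

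Ccnd1, cyclin D1, which starts the passage through G1, had values of 3.39, 3.52 and 3.30 with BSA, 3.75, 3.73 and 4.12 with Rspo2, 4.23, 4.55 and 4.67 with Wnt3a, and 5.36, 5.07 and 4.90 with the combination. The 4 groups did not overlap. Its changes were 0.46 with Rspo2 (adjusted p = 0.063), 1.08 with Wnt3a and 1.70 with the combination (adjusted p = 0.0012 and 2.2e-05), and it alone reached 2-fold among the genes of these lists. E2f8, a repressor of the E2f family, had -0.04, 0.40 and 0.78 (adjusted p = 0.78, 0.0062 and 8.0e-05), but -0.11 with Wnt3a for the mean of its detected probes, and E2f2, an activator, fell by 0.35 with Wnt3a and 0.72 with the combination (adjusted p = 0.046 and 0.0010).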

How the data were processed

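C57MG cells of 4 groups were measured on 12 single-color arrays, 3 a group. For the deposited intensities the authors used Agilent Feature Extraction 9.5.3.1, per the file headers, with background subtraction and removal of spatial trends, and without scaling between arrays. The deposited ratio values are each signal over the 75th percentile of its array, made by the authors on a linear scale, and served as an alternative. The files also hold mean and background intensities and quality flags, which the authors deposited as 0 or 1.

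Here, 1327 of 520548 spot values flagged as uneven or as outliers were left out, spots of a probe were averaged (41174 probes), and the log2 75th percentile of its array was subtracted from each log2 intensity. Detection required the above-background flag on all 3 arrays of a group (on at least 0.5 of the spots of a probe) and values on at least 2 arrays in each group. Group means were compared by limma 3.58.1, run under R 4.3.3 with the package data.table, version 1.17.8, in 1 fit of 12 arrays with empirical Bayes variances, and p-values were adjusted by Benjamini-Hochberg over 22750 probes in each of 5 comparisons. The fit was tested on simulated data. Nothing states that the monolayers differ in more than the well, so p-values measure the spread between these monolayers. The number of arrays limits the precision.

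The members and all lists were chosen with earlier results of these data known. Values on every array are given for the 2 members of each of 8 roles with the smallest F-test p over the 3 comparisons with BSA and for any member that reached 2-fold (none did), and the 3 such genes of each other list are named. Ccnd1 is given in full as the gene of those lists past 2-fold, and further probes are named where they differ, as chosen after their values were seen, as were the differences within slides under other scalings. The promoter windows, gene spans and coordinates are from RefSeq on GRCm38.p6. Shared replicate numbers did not clearly pair the arrays: same-numbered arrays of different groups had correlations of deviations from -0.41 to 0.27, with 4 of 18 over 0.1. Yet 6 of 12 arrays correlated best with those of their own number, so a pairing is not excluded. The 14 alternatives of scaling, background, filter, test, slide, block and probe, and fits without 1 of the 12 arrays in turn, are given in the closing section. Figures were made with matplotlib 3.10.9, pandas and numpy in python 3.11.15.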

Additional observations from a re-analysis of the deposited data

Results flagged for a closer look

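In 3 genes of the other cell cycle lists the effect of Rspo2 differed between cells without and with Wnt3a, by the interaction term of the limma fit; no member was called for it. Orc1, a subunit of the origin recognition complex, had an interaction of 0.44 on the log2 scale (adjusted p = 0.041), with -0.39 for Rspo2 against BSA and 0.05 for the combination against Wnt3a. Hmmr had 0.62 (adjusted p = 0.012), with -0.21 and 0.40. Cdk6, a G1 kinase, had 0.74 (adjusted p = 0.014), with -0.48 and 0.27. Of all probes 8.9% were called for the interaction, and 0.743% with slide as a term. None of the 3 genes was called with slide as a term, without a filter, with normexp background or at 2-fold as well; the adjusted p with slide as a term was 0.13, 0.10 and 0.15. Of 11 alternatives Orc1 was called in 4, Hmmr in 7 and Cdk6 in 6. With 1 array left out at a time, Hmmr and Cdk6 were called in 12 of 12 fits and Orc1 in 2, those without Wnt3a array 2 or Wnt3a array 3. The causes were not tested.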

How the results depend on the processing

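Leaving out 1 array at a time gave 0 to 1 called replication genes and 0 to 6 mitosis genes with Rspo2, 3 to 5 and 6 to 11 with Wnt3a, and 5 to 6 and 7 to 10 with the combination; adding Rspo2 to Wnt3a gave 0 to 1 (Ccne2, without Wnt3a array 3) and 0 to 0, and the interaction 0 to 0 in both lists. The mitosis count with Rspo2 was 0 without BSA array 1, BSA array 2 or Rspo2 array 3, 1 without BSA array 3, 2 without Rspo2 array 2 or combination array 2, and 3 without Rspo2 array 1. Over all probes the shares called in these fits were 2.61%, 4.99%, 2.05%, 3.54%, 6.2%, 9.92% and 15.8%, in that order. The replication gene called with Rspo2 was lost without any 1 BSA array, Rspo2 array 2 or 3, Wnt3a array 1, or combination array 1 or 2. The mitosis count with Wnt3a was 6 without BSA array 3 or Wnt3a array 2, beside 23.2% and 21.8% of all probes. At least 2-fold as well, normexp background, slide as a term and the methods' t-test unadjusted at 2-fold each gave 0 in both lists with Rspo2, Wnt3a and the combination. With Rspo2 the counts were also 0 and 0 without a filter, with only the arrays of the groups compared and by the methods' t-test with adjustment, and 0 and 3 with slide as a random block. Over all probes these 4 settings called 0.403%, 5.66%, 0.00879% and 9.9%. The mitosis count with Rspo2 was 3 with the mean of the detected probes, and the replication count was 2 under quantile normalization and with only probes above background on all arrays. With Wnt3a the mitosis count was 4 under quantile normalization, 5 without a filter, 5 with only the arrays of the groups compared and 1 by the adjusted t-test, which called 0 replication genes. Beside these stood 24%, 11.1%, 25.4% and 6.79% of all probes. The mean of the detected probes called Ccne2 (1 gene, 0.45) for adding Rspo2 to Wnt3a, and the quantile and background-restricted scalings called Rrm1 (1 gene each, 0.47 and 0.34) for the interaction. With the replicate number as a block, which did not clearly pair the arrays here, the counts were 0 and 0 with Rspo2, 3 and 9 with Wnt3a and 5 and 8 with the combination. That block called 3.56%, 25.6% and 33.3% of all probes. Reversed under quantile normalization were Birc5 (-0.055) and Cdc20 (-0.060) with Wnt3a and Cdc20 (-0.10) with the combination; reversed elsewhere were E2f8 (-0.11) with Wnt3a for the mean of the detected probes, and Cdk2 (-0.020) with the combination, with slide as a term; no other called change of a named gene turned its direction under any alternative run. Of the counts of the other lists under alternatives that kept all arrays, 138 were smaller by over 1.5 times, 125 stayed within that factor and 5 were larger. Over all probes, normexp background called 0.0176%, 0.479% and 4.62%. The causes were not tested. By the probe used, every member was above background on all 12 arrays.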

Other observations

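Further probes of some members differed from the probe used. A second detected probe of Cenpa gave -0.51, -0.67 and -0.45 with Rspo2, Wnt3a and the combination, of which only the value with Wnt3a passed the test (adjusted p = 0.013), where the probe used gave -0.10, 0.16 and 0.25. The median intensities of these 2 probes were 47.8 and 6045. A second probe of Top2a, with a median intensity of 212 against 4506, gave -0.48, -0.80 and -0.46 (adjusted p = 0.17, 0.026 and 0.15). A second probe of Espl1, with a median intensity of 80.8 against 2066, gave -0.31, -0.65 and -0.58, lower with Wnt3a (adjusted p = 0.038). A second probe of Mcm3, at 5627 against 9462, rose by 0.26 with the combination (adjusted p = 0.020), where the probe used gave -0.02. Over the 22 other detected probes of the members, 18, 16 and 16 had the sign of the probe used in the 3 comparisons. Of those that belong to members called in the comparison, 6 of 8, 7 of 8 and 9 of 11 had that sign, and 0 were called the opposite way.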
